A study of Homo sapiens with 12 samples.

Results

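Imprinted genes are expressed mainly from 1 parental copy, and the silent copy is marked in the germline by DNA methylation that later cell divisions pass on. At many imprinted loci this mark lies at a shared control region, which sets several neighbouring genes at once, and some of these neighbours are long noncoding RNAs that act on the others. Because DNA methylation holds the marks, imprinted genes are often examined after treatment with agents that lower it. Here, 31 imprinted genes were examined by RNA-sequencing in U937, a human myeloid leukaemia cell line. The 31 were taken by name from 44786 gene symbols and held 326 of 197782 transcripts. Each gene was represented by its most abundant transcript, judged by the mean of all 12 libraries. By most reports, 21 of the genes are expressed from the paternal copy and 7 from the maternal copy, while 3 have complex or disputed imprinting (GNAS, BLCAP and IGF2R). The reads were not assigned to parental copies, so the values below are sums over both alleles.

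Cells were untreated, or received 200 nM decitabine (DAC), 1 µM all-trans retinoic acid (ATRA) or both agents (DAC+ATRA), with 3 libraries in each of 4 groups. DAC is built into DNA in place of cytosine and lowers DNA methylation by binding the methyltransferases, and ATRA activates the retinoic acid receptors. According to the labels, the untreated cells were harvested at 96 h and the treated cells at 72 h, whereas the methods of the study name a single harvest time for the experiment. If the labels hold, treatment and harvest time cannot be told apart in any comparison with untreated cells. The labels give 3 days of treatment with a fresh dose of DAC each day, whereas the methods of the study place ATRA at the third dose. All cells grew with 20% FCS and 5 ng/ml GM-CSF per the labels, whereas the methods of the study give less FCS and name no GM-CSF. The replicates are described as technical triplicates of a single cell line, so p-values measure only the spread between these libraries. In RNA from bulk cultures, a strong change in few cells and a weak change in many cells cannot be told apart.

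Between 8042435 and 10683593 reads were counted per library. Of 10 myelomonocytic markers, 8 rose above 3 reads in at least 1 library, with CD33 at normalized read counts of 730 to 892, whereas CD68 stayed at or below 2.7 and the leukocyte gene PTPRC was listed at 0. The summed level of the 10 markers was 60938 to 68227 in untreated cells, 38375 to 55737 with DAC, 40758 to 58587 with ATRA and 33736 to 36302 with DAC+ATRA. MPO, a granule enzyme of immature myeloid cells, made up most of this sum in untreated cells, with a mean of 52120 there and of 14973 with DAC+ATRA, whereas LYZ had means of 164 and 1097, ITGB2 of 112 and 494 and CEBPA of 7791 and 12930. Of 3 fibroblast markers, 2 exceeded 3 reads, COL1A1 made up most of the sum, and DCN was at 0. This sum was 13.7 to 21.2 in untreated cells, 201 to 259 with DAC, 45.4 to 50.1 with ATRA and 118 to 153 with DAC+ATRA. The sum over 3 T cell markers was 0 in untreated cells, 4.32 to 8.77 with DAC, 0 to 2.11 with ATRA and 5.26 to 14.8 with DAC+ATRA, a level like that of the least abundant measured imprinted genes. That over 3 epithelial markers was 0 in untreated and ATRA cells, 2.16 to 9.96 with DAC and 2.47 to 8.42 with DAC+ATRA. For 3 erythroid markers the sums in untreated, DAC, ATRA and DAC+ATRA cells were 9.19 to 15.7, 18.5 to 27.0, 10.8 to 18.0 and 15.4 to 26.3, and for 3 B cell markers 345 to 433, 351 to 426, 277 to 371 and 354 to 394. The part of these shifts in the results on imprinted genes was not tested.

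The 4 promoter windows printed here belong to MEG3, NAP1L5 and NDN, whose counted transcripts had no read in any library without DAC, and to MKRN3, a neighbour of NDN on chromosome 15 with reads in every library. Each window is 300 bases of RefSeq sequence (GRCh38.p14), from 250 bases before the annotated transcription start to 50 after it, printed 5′ to 3′ on the strand of the gene with every CG dinucleotide in capitals. MEG3 lies on the plus strand at chr14:100825868-100826167, NAP1L5 on the minus strand at chr4:88697780-88698079, NDN on the minus strand at chr15:23687256-23687555 and MKRN3 on the plus strand at chr15:23565424-23565723.
MEG3: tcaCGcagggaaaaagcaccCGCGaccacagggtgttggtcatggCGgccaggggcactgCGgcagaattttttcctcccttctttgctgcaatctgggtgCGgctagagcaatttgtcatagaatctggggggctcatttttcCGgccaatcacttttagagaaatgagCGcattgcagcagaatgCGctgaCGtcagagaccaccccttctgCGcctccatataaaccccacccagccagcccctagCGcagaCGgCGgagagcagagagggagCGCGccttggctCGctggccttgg
NAP1L5: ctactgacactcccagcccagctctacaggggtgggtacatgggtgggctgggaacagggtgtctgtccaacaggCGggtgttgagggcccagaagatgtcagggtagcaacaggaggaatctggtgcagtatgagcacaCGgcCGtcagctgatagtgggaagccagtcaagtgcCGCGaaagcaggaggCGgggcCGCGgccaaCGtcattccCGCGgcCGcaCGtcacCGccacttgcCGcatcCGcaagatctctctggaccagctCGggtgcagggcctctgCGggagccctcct
NDN: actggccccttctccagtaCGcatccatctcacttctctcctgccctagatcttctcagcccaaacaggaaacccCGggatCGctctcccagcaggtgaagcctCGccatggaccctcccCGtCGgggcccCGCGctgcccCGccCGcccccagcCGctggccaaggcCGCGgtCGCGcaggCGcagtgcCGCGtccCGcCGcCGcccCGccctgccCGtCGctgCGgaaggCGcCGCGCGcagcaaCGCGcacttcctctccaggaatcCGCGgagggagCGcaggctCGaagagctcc
MKRN3: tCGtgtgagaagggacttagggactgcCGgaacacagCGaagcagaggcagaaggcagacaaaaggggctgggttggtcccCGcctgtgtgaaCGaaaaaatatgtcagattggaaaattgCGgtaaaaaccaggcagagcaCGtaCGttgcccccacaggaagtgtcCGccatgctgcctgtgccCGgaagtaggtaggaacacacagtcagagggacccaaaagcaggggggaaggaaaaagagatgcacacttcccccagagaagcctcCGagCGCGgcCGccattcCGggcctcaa

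The MEG3 window held 17 CG dinucleotides, the NAP1L5 window 18, the NDN window 35 and the MKRN3 window 15. Over 35116 promoter windows of 27305 symbols the median was 14 and the 90th percentile was 37. The NDN window therefore held more CG dinucleotides than 85.9% of windows, whereas the other 3 lay close to the median. The 6 bases TGCCGC are the sequence that the zinc finger protein ZFP57 recognises when methylated. On either strand, TGCCGC occurred once in the MEG3 window, 2 times in NAP1L5, once in NDN and not at all in MKRN3, and 16.7% of all windows held it. Windows of genes with other behaviour in these data held it too. It occurred up to 3 times in a window of MEST, 2 times in DIRAS3 and 2 times in SNURF, which were silent. The windows of AIRN and H19, also silent, lacked it, and windows of BLCAP, which passed no test, held it once. These counts describe letters in a window and give no information on methylation or binding in these cells. A RefSeq window was given for 20 of the 31 genes.

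The 31 genes fell into 3 states. A gene was taken as measured when its transcript reached a normalized read count of 10 in at least 3 libraries, as silent when no library exceeded 3 reads, and as low between these limits. By this definition 15 genes were measured, PEG3 was low and 15 were silent. Of all 44786 symbols 57.5% were silent, against 48.4% of the imprinted genes, so silence was not more frequent among the latter. Of the 15 measured genes, 10 reached the limit in 3 or more libraries without DAC. The other 5 (MEG3, NAP1L5, NDN, SNRPN and GRB10) passed only with the help of DAC libraries, and for the first 3 of these no library without DAC reached it. Counts over the 15 are therefore also given for the 10, because a gene that passes through the group where it is high is bound to differ between groups.

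The silent genes included IGF2, a fetal growth factor, and H19, the noncoding RNA of the same chromosome 11 domain. They also included CDKN1C, an inhibitor of cyclin-dependent kinases, PHLDA2, a placental growth regulator, and KCNK9, a potassium channel. The paternally expressed silent genes besides IGF2 were MEST, the retrotransposon-derived PEG10 and its neighbour SGCE, SNURF, NNAT, MAGEL2, the zinc finger genes ZIM2 and ZDBF2, the RAS-like growth inhibitor DIRAS3, and AIRN, a noncoding RNA antisense to IGF2R. Thus 11 of the 21 paternally expressed genes, 4 of the 7 maternally expressed genes and none of the 3 others were silent. No read was counted over any transcript of IGF2, PEG10, MAGEL2, ZIM2, DIRAS3, AIRN, H19 or PHLDA2, which are 8 of the 15. The other 7 had a few reads. MEST, for example, had up to 3 reads in a library when summed over its transcripts, and CDKN1C had at most 1.

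A count of 0 in these data need not mean that a gene was silent. Reads were counted per transcript, and a transcript that shares all its bases with others gathered few reads. Of 57513 transcripts without a base of their own in GENCODE 44, 2.02% had 10 or more reads over all libraries together, against 33.5% of 117255 transcripts with such bases. All transcripts of PEG10 together had 108 bases of their own, those of H19 361 and those of ZIM2 404. For IGF2 the total was 817 bases and for CDKN1C 544. AIRN had 2885 bases of its own, SGCE 2244, DIRAS3 2049 and MEST 1661, so for these genes more sequence was open to counting. The single MAGEL2 transcript was not placed in GENCODE 44. The map of all 31 genes over the 12 libraries shows MEG3, NAP1L5 and NDN as gaps in the untreated and ATRA columns.

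**Figure D1:**
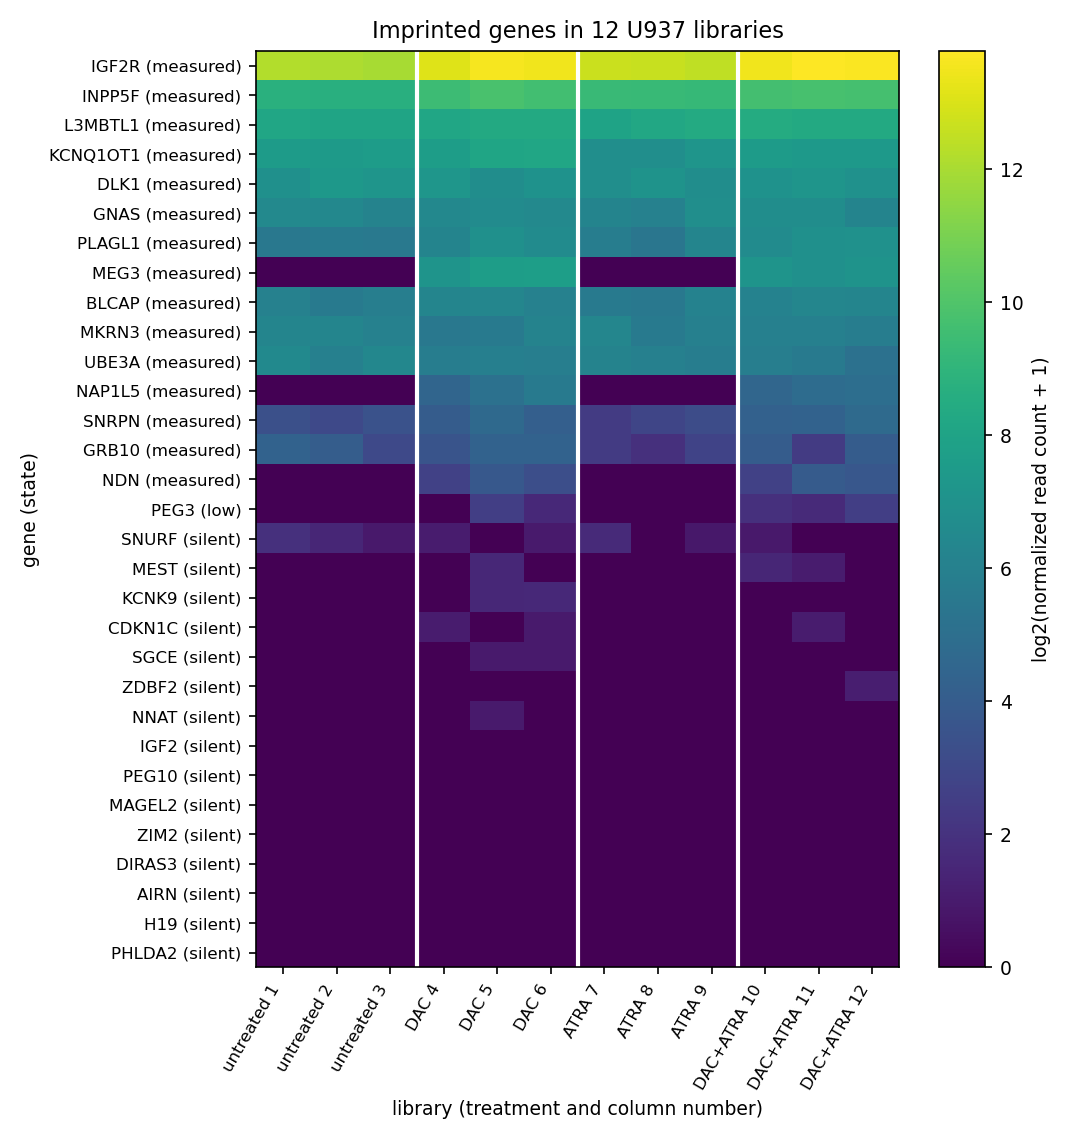
Heat map of the 31 imprinted genes (rows, with their state) in the 12 libraries (columns, by treatment and column number); colour gives log2(normalized read count + 1). The 15 measured genes stand at the top, PEG3 below them and the 15 silent genes at the bottom, and MEG3, NAP1L5 and NDN are at 0 in the untreated and ATRA libraries.

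With DAC, 6 of the 15 measured imprinted genes were higher than in untreated cells and none was lower (limma, adjusted p under 0.01 over 19373 transcripts). These were IGF2R, INPP5F and PLAGL1 as well as MEG3, NAP1L5 and NDN, which passed the filter only through DAC libraries. Of all transcripts tested 33.5% were called with DAC, 22.2% higher and 11.3% lower. Among the 10 genes measured without the help of DAC 3 were higher, which is close to the share of all transcripts. The median log2 fold change was 0.27 over the 10 genes, against 0.05 over all transcripts.

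With ATRA, 2 of the 15 genes (IGF2R and INPP5F) were higher and KCNQ1OT1 was lower, against 5.11% and 1.87% of all transcripts (6.97% in either direction). All 3 belonged to the 10 genes measured without the help of DAC. With DAC+ATRA, 7 genes were higher and UBE3A was lower than in untreated cells, against 25.5% and 16.1% of all transcripts (41.6% in either direction). The 7 were the 6 genes of the DAC comparison and SNRPN, and 3 of them belonged to the 10 genes measured without the help of DAC. The 3 comparisons share the untreated libraries. Over these 10, median log2 fold changes were -0.07 with ATRA (0.00 over all transcripts) and 0.25 with DAC+ATRA (0.05 over all transcripts). The plot of fold changes sets the 3 comparisons side by side.

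**Figure D2:**
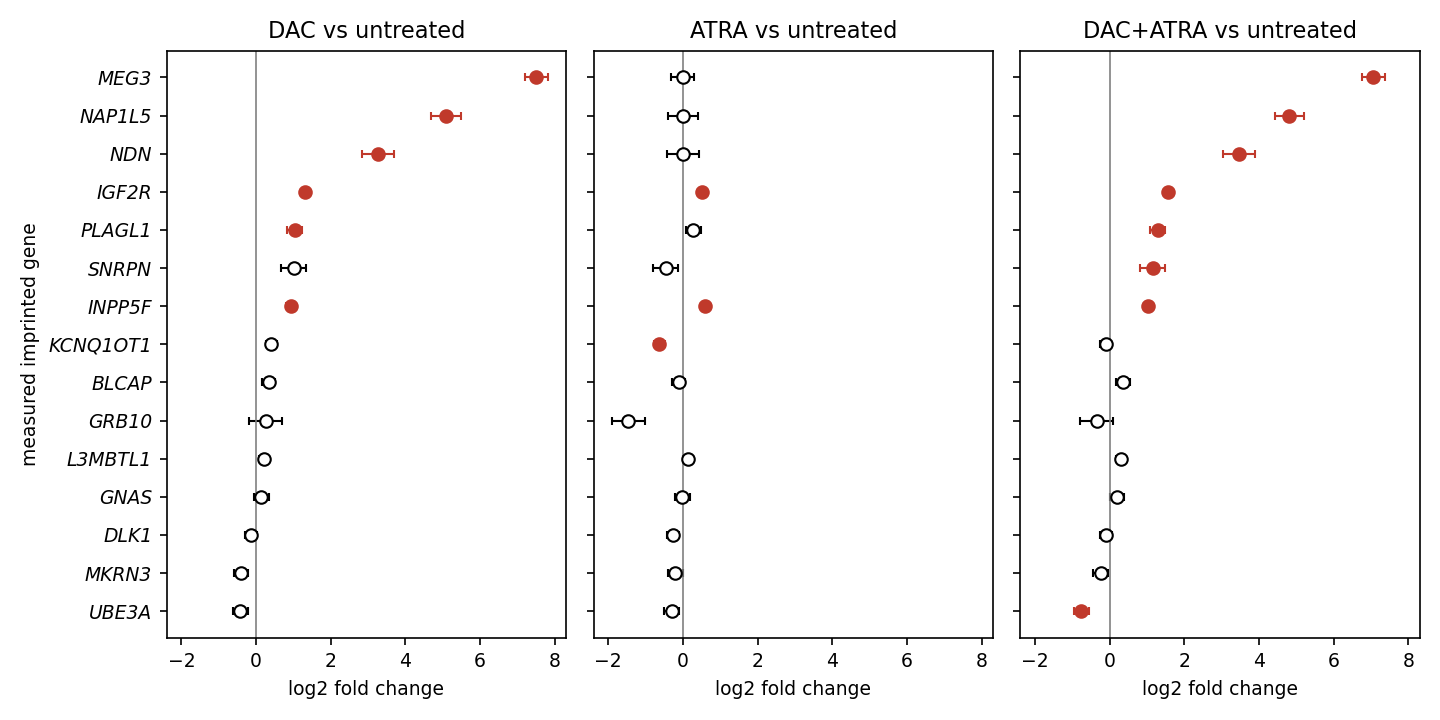
Log2 fold change (horizontal axis, on the log2(normalized read count + 1) scale) of the 15 measured imprinted genes against untreated cells in 3 comparisons; bars are standard errors of the limma fit, and filled red points passed an adjusted p under 0.01. MEG3, NAP1L5 and NDN have the 3 highest values with DAC and with DAC+ATRA and lie at 0 with ATRA.

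MEG3 is a maternally expressed long noncoding RNA of the chromosome 14 imprinted cluster. Its counted transcript (ENST00000452120) lies at chr14:100826118-100833328 on the plus strand, starts in the window printed above and has 856 bases of its own. This transcript had 0 reads in the 3 untreated and the 3 ATRA libraries. Its normalized read count was 139, 206 and 208 with DAC, and 141, 121 and 135 with DAC+ATRA. All 6 libraries with DAC thus lay far above the other 6. Against 3 reads per library, the mean with DAC was at least 67.0-fold higher and that with DAC+ATRA at least 48.0-fold higher than in untreated cells. Because MEG3, NAP1L5 and NDN passed the filter only through libraries with DAC, their differences are given as a description, with no p-value. A further MEG3 transcript (ENST00000398460) passed the filter and had 14.1 to 32.1 normalized reads with DAC, 16.3 to 24.7 with DAC+ATRA and at most 0.832 in the other libraries.

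NAP1L5, a paternally expressed gene of the nucleosome assembly protein family, has a single transcript of 1917 bases at chr4:88695913-88697829 on the minus strand, all of them its own. It had 0 reads without DAC. Its normalized read count was 21.6, 34.1 and 48.8 with DAC and 22.6, 28.4 and 30.9 with DAC+ATRA. The DAC libraries spanned the DAC+ATRA libraries, and all 6 lay above the 6 without DAC. The mean with DAC was at least 12.7-fold higher than in untreated cells and that with DAC+ATRA at least 9.92-fold higher.

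NDN encodes necdin, a growth-suppressing protein of the MAGE family from the Prader-Willi region of chromosome 15. Its normalized read count was 5.40, 12.7 and 8.96 with DAC and 5.42, 14.7 and 12.4 with DAC+ATRA, and 0 in the other 6 libraries. At most 14 reads were counted in a library, so the size of its change is known less precisely than that of MEG3. Against 3 reads per untreated library, the mean was at least 3.27-fold higher with DAC and at least 3.94-fold higher with DAC+ATRA. PEG3, a paternally expressed zinc finger protein, had the same kind of pattern at a lower level and was not tested. It had 0, 4.87 and 1.99 normalized reads with DAC, 2.71, 2.11 and 4.94 with DAC+ATRA, and 0 in the other libraries.

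No read in the 6 libraries without DAC and a read in each of the 6 with DAC was a pattern singled out after the values were seen, and it is given as a description only. MEG3, NAP1L5 and NDN had it. Of the 68785 transcripts with a read in any library, 853 (1.24%) had it, and of the 19373 tested transcripts 273 (1.41%). Of the neighbours of NDN, MKRN3 had reads in every library and did not share it. MKRN3, which encodes a ring finger protein, had 66.5 to 75.6 normalized reads in untreated cells and 45.4 to 69.7 with DAC, and its adjusted p was 0.0934 (log2 fold change -0.41). MAGEL2 had no read in any library.

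**Figure D3:**
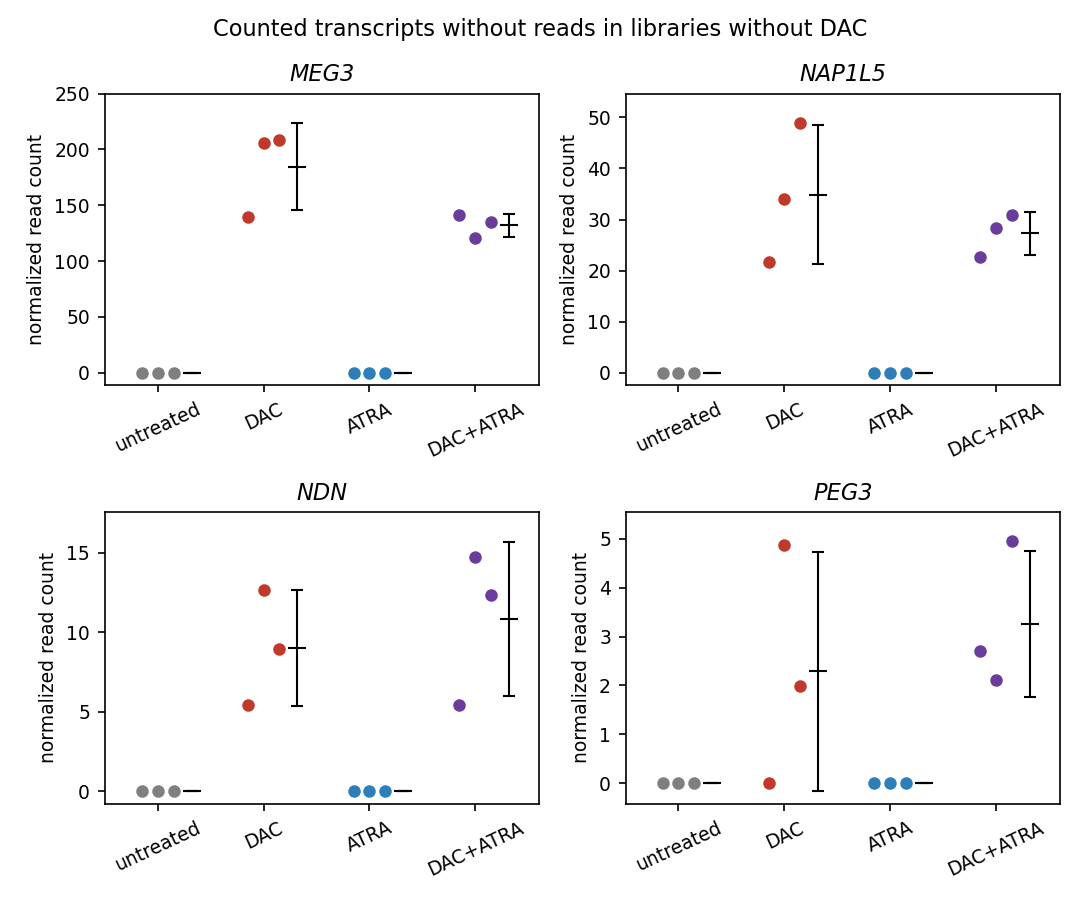
Normalized read count (vertical axis, linear, a separate scale for each gene) of MEG3, NAP1L5, NDN and PEG3 in the 4 groups; each point is a library, and the bar beside the points is the mean ± SD (n = 3). The untreated and ATRA libraries are at 0 for all 4 genes.

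Along the chromosome 14 cluster DLK1 did not move with MEG3. DLK1, a paternally expressed transmembrane protein related to Notch ligands, starts at -99.2 kb from the start of MEG3, on its upstream side. DLK1 had normalized read counts of 119, 162 and 146 in untreated cells, 149, 108 and 131 with DAC, 111, 137 and 108 with ATRA, and 127, 144 and 122 with DAC+ATRA. The 4 groups overlapped. The log2 fold change of DLK1 was -0.14 with DAC (95% interval -0.47 to 0.19, limma, adjusted p = 0.507) and -0.11 with DAC+ATRA (-0.44 to 0.22, adjusted p = 0.590).

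Downstream of MEG3, MEG9, a further maternally expressed noncoding RNA, starts at a distance of 244 kb. It was singled out here for its place beside MEG3 and had 24.9, 36.0 and 26.9 normalized reads with DAC and 24.4, 23.2 and 22.2 with DAC+ATRA, and 0 in the other libraries. Set against 3 reads per untreated library, its mean was at least 10.6-fold higher with DAC and at least 8.45-fold higher with both agents. MEG9 passed the filter only through libraries with DAC, so these values are a description. The counted transcripts of MEG8 at 87.3 kb and DIO3, which encodes a thyroid hormone deiodinase, at 735 kb had at most 4 reads in any library. All of these reads were in libraries with DAC. Summed over its transcripts, MEG8 had up to 6 reads in a library.

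**Figure D4:**
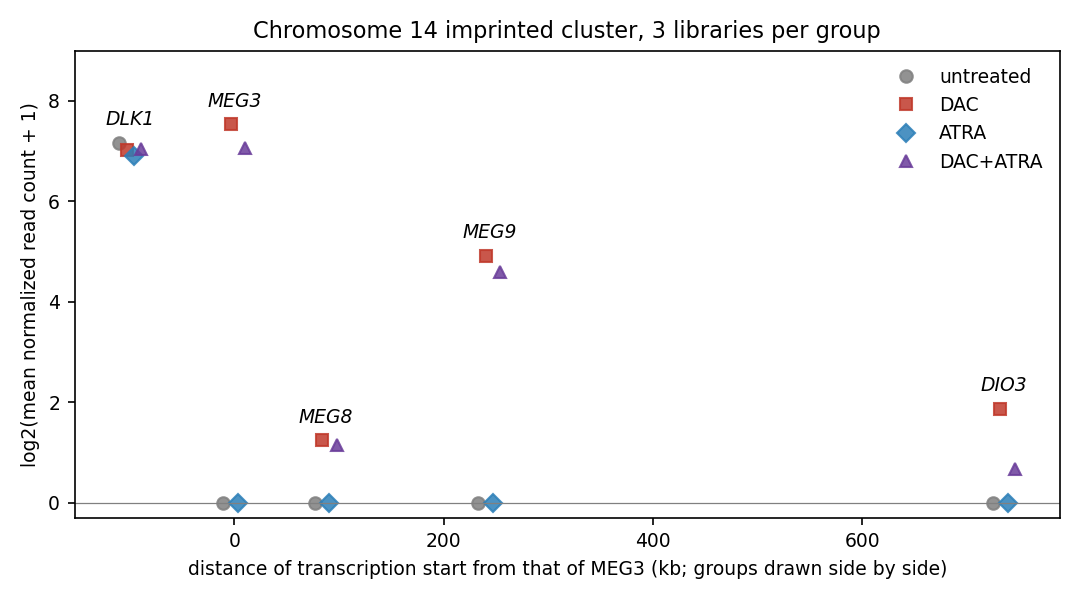
Log2(mean normalized read count + 1) in the 4 groups (vertical axis, 3 libraries per group) against the distance of the transcription start from that of MEG3 in kb (horizontal axis) for 5 genes of the chromosome 14 cluster. DLK1 lies at a like level in the 4 groups, whereas MEG3 and MEG9 lie at 0 in untreated and ATRA cells and well above 0 in both groups with DAC.

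IGF2R had the highest normalized read counts of the 31 genes. It encodes the receptor that carries mannose 6-phosphate-tagged enzymes to lysosomes and clears IGF2, and its imprinting in humans varies between persons. The counted transcript (ENST00000356956, chr6:159969082-160111504, plus strand) had 4706, 4303 and 4085 normalized reads in untreated cells and 8947, 12393 and 11369 with DAC. With ATRA the values were 6680, 6286 and 5627, and with DAC+ATRA they were 11300, 14097 and 13244. Every treated library lay above every untreated library. IGF2R was 2.48-fold higher with DAC (log2 fold change 1.31 ± 0.11, SE, n = 3 and 3, limma, adjusted p = 2.52e-10) and 2.94-fold higher with DAC+ATRA (1.56 ± 0.11, adjusted p = 6.50e-12). With ATRA the gene was 1.42-fold higher (0.50 ± 0.11, adjusted p = 0.00196). This last call was lost without untreated library 2 or 3 or ATRA library 7 or 8, with an adjusted p of up to 0.0193. AIRN, the antisense RNA that silences the gene in mice, had no read.

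INPP5F encodes a phosphoinositide phosphatase. Only a short isoform of the gene is known to be imprinted, and the transcript counted here (ENST00000361976) was not placed in GENCODE 44, so the values do not single that isoform out. INPP5F had normalized read counts of 422, 414 and 410 in untreated cells, 696, 904 and 780 with DAC, 654, 619 and 598 with ATRA, and 809, 866 and 853 with DAC+ATRA. Again the treated libraries all lay above the untreated ones. The log2 fold changes were 0.92 ± 0.11 with DAC (limma, adjusted p = 1.38e-07), 0.58 ± 0.11 with ATRA (adjusted p = 0.000434) and 1.02 ± 0.11 with DAC+ATRA (adjusted p = 1.89e-08).

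PLAGL1, also named ZAC1, encodes a zinc finger transcription factor that restrains growth. PLAGL1 was counted at 45.0, 48.2 and 46.2 normalized reads in untreated cells and 73.5, 120 and 101 with DAC. It was 57.0, 41.0 and 77.4 with ATRA, which overlapped with both, and 100, 119 and 126 with DAC+ATRA. PLAGL1 rose 2.04-fold with DAC (log2 fold change 1.03 ± 0.21, limma, adjusted p = 0.000224) and 2.44-fold with DAC+ATRA (1.28 ± 0.21, adjusted p = 1.09e-05). Its value with ATRA did not pass the test (0.28 ± 0.21, adjusted p = 0.479).

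SNRPN, a small nuclear ribonucleoprotein gene of the Prader-Willi region, was counted on a transcript with 316 bases of its own (ENST00000554227, chr15:24954948-24978539, plus strand). It had 9.19, 7.28 and 10.2 normalized reads in untreated cells, 15.1, 25.3 and 16.9 with DAC, 4.22, 6.37 and 8.32 with ATRA, and 18.1, 18.9 and 26.0 with DAC+ATRA. The 6 libraries with DAC lay above the 6 without. The log2 fold change was 1.15 ± 0.33 (SE) with DAC+ATRA, which passed the threshold, and 1.01 ± 0.33 with DAC, which missed it. Between 4 and 26 reads stood behind these values, and they are given as a description because SNRPN passed the filter only with the help of DAC libraries. The DAC+ATRA call was lost without untreated library 1 or 2 or DAC+ATRA library 11 or 12 (adjusted p up to 0.0324) and with DESeq2 (0.0175).

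KCNQ1OT1 is a paternally expressed noncoding RNA antisense to KCNQ1, and in cis it silences neighbours such as CDKN1C. It was the only measured gene called lower with ATRA alone. The 3 untreated libraries had 187, 185 and 194 normalized reads of KCNQ1OT1, those with DAC 206, 269 and 285, those with ATRA 110, 110 and 145, and those with DAC+ATRA 192, 169 and 166. The ATRA libraries were below all others and the DAC libraries above all others. The log2 fold change with ATRA was -0.64 ± 0.15 (limma, adjusted p = 0.00387), but it was lost without any 1 of the untreated libraries or without ATRA library 7 or 8 (adjusted p up to 0.0266). With DAC it was 0.41 ± 0.15 and missed the threshold (adjusted p = 0.0252), and with DAC+ATRA it was -0.10 ± 0.15 (adjusted p = 0.577). The libraries were strand-specific, but the strand setting of the counting is not given in the sources used here, so reads of KCNQ1 introns cannot be told apart from it. The KCNQ1 transcript itself had 11.6 to 25.9 normalized reads over the 12 libraries.

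UBE3A, a ubiquitin ligase gene that is maternally expressed in neurons, was the only measured gene called lower with DAC+ATRA. Its normalized read count was 91.0, 63.7 and 83.1 in untreated cells and 57.9, 48.4 and 34.6 with DAC+ATRA, a log2 fold change of -0.76 ± 0.20 (limma, adjusted p = 0.00232). The groups did not overlap. The call was lost without untreated library 1 or 3 or DAC+ATRA library 12 (adjusted p up to 0.0278). With DAC the values were 57.3, 60.4 and 57.8 (log2 fold change -0.42, adjusted p = 0.0882) and with ATRA 70.8, 62.8 and 57.4 (-0.30, adjusted p = 0.406).

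**Figure D5:**
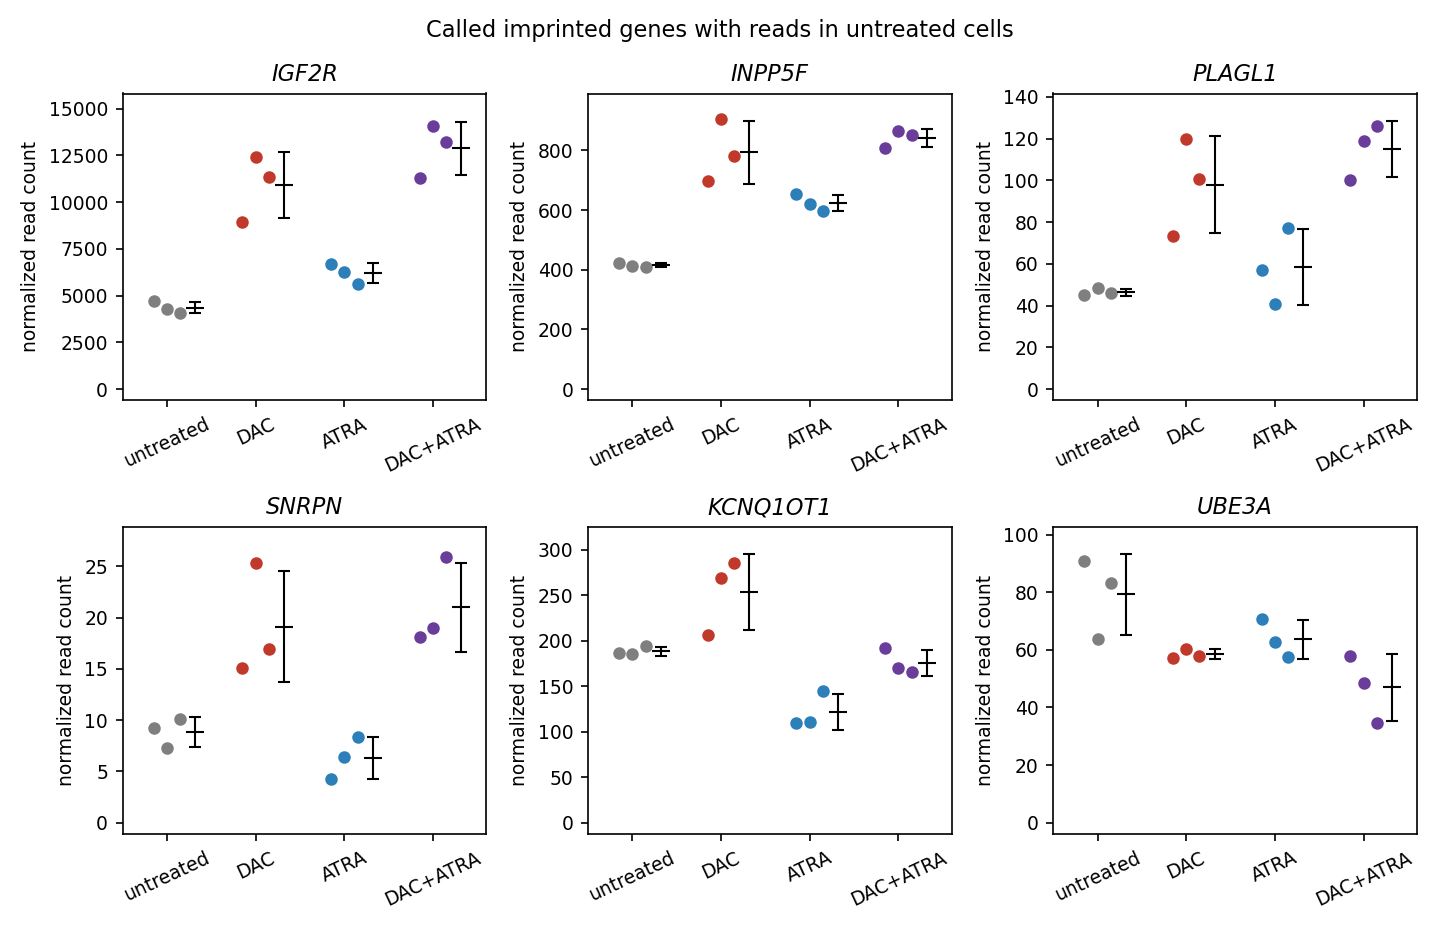
Normalized read count (vertical axis, linear, a separate scale for each gene) of the 6 imprinted genes with reads in untreated cells that passed the test in any comparison; each point is a library, and the bar is the mean ± SD (n = 3). IGF2R, INPP5F, PLAGL1 and SNRPN are higher in all DAC and DAC+ATRA libraries than in untreated cells, KCNQ1OT1 is lowest with ATRA, and UBE3A has its lowest mean with DAC+ATRA.

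The other 6 measured genes passed the test in no comparison, as judged by the 1 transcript counted for each. Besides DLK1 and MKRN3 these were L3MBTL1, a chromatin-binding protein with group means of 273 to 338 normalized reads, and GNAS, the stimulatory G protein subunit, with 82.6 to 95.8. BLCAP, a gene with NNAT in its intron, had group means of 54.4 to 74.8. GRB10, an adaptor of the insulin receptor, had 19.3, 15.5 and 7.39 normalized reads in untreated cells and 4.22, 2.73 and 5.83 with ATRA. The ATRA libraries were below the untreated ones, but the log2 fold change of -1.47 ± 0.44 missed the threshold (limma, adjusted p = 0.0292). The GNAS and GRB10 transcripts counted were retained-intron forms, which are not the imprinted isoforms as such.

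Further transcripts of the 31 genes were tested for 6 symbols, 10 in all, and 3 of the 10 passed in some comparison. Apart from the MEG3 transcript described above, GNAS transcript ENST00000461152 had 25.7, 16.4 and 18.5 normalized reads in untreated cells and 48.6, 74.0 and 77.7 with DAC. Its log2 fold change was 1.67 ± 0.25 with DAC (limma, adjusted p = 3.64e-06) and 1.38 ± 0.25 with DAC+ATRA (adjusted p = 3.78e-05), while the main GNAS transcript was at 0.14 and 0.20. With DAC+ATRA against ATRA, ENST00000461152 was at 0.98 ± 0.25 (limma, adjusted p = 0.00230) and the main transcript at 0.21. PLAGL1 transcript ENST00000367571 rose by 1.03 ± 0.32 with DAC+ATRA (adjusted p = 0.00883).

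Adding ATRA to DAC gave no call among the 15 measured genes. Against DAC alone, 0 of the 15 genes passed the limma test, while 8.77% of all transcripts did (5.18% higher and 3.59% lower). edgeR and DESeq2 likewise called 0, and 2 genes had an unadjusted p under 0.05. They were KCNQ1OT1, with a log2 fold change of -0.52 ± 0.15 (adjusted p = 0.0175), and IGF2R, with 0.25 ± 0.11 (95% interval 0.02 to 0.47, adjusted p = 0.145). The interval for MEG3 ran from -1.09 to 0.18 and that for NAP1L5 from -1.09 to 0.54, so differences within these limits were not detectable with 3 libraries per group. For NDN the interval was -0.68 to 1.10.

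Adding DAC to ATRA raised 8 of the 15 genes against ATRA alone, and lowered none, against 19.1% and 10.2% of all transcripts (29.4% in either direction). The 8 were KCNQ1OT1 and the 7 genes called higher in the comparison of both agents with untreated cells. Among the 10 genes measured without the help of DAC 4 were higher. The log2 fold changes were 1.05 ± 0.11 for IGF2R and 1.01 ± 0.21 for PLAGL1 (limma, adjusted p = 1.39e-08 and 0.000329). For INPP5F the value was 0.43 ± 0.11 (adjusted p = 0.00249), which was lost without DAC+ATRA library 11 or 12 (adjusted p up to 0.0144). KCNQ1OT1 was 0.54 ± 0.15 higher (adjusted p = 0.00501), a call lost without ATRA library 7 or 8 or DAC+ATRA library 10 or 11 (adjusted p up to 0.0318).

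The DAC × ATRA interaction, which is 0 where the effects of both agents sum on the log2 scale, was called for 0 of the 15 genes by limma, by edgeR and by DESeq2, and for 1.51% of all transcripts (0.527% above and 0.986% below 0). At an unadjusted p under 0.05 there was 1 gene, INPP5F, with -0.49 ± 0.16 (adjusted p = 0.0947). Its log2 fold change with both agents (1.02) was below the sum of those with DAC (0.92) and with ATRA (0.58). For IGF2R the interaction was -0.26 ± 0.15 (95% interval -0.57 to 0.06).

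By parental copy, 4 of the 9 measured paternally expressed genes (NAP1L5, NDN, INPP5F and PLAGL1) and 1 of the 3 measured maternally expressed genes (MEG3) were higher with DAC. Of the 3 genes with complex or disputed imprinting, IGF2R was higher. With DAC+ATRA the counts were 5 of 9, 1 of 3 and 1 of 3, and the maternally expressed UBE3A was lower. Among the 10 genes measured without the help of DAC, 2 of 6 paternally expressed genes, 0 of 1 maternally expressed gene and 1 of 3 others were higher, with DAC as with DAC+ATRA, against 22.2% and 25.5% of all transcripts. The numbers are too small to set the classes against each other, and no test between them was run.

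Outside the 31 genes, 74 further imprinted genes were listed, of which 68 had a transcript, 21 were tested and 31 were silent. With DAC 7 were higher and 1 lower, against 22.2% and 11.3% of all transcripts. PEG13, MEG9, WT1-AS, SLC22A18 and SLC22A18AS had passed the filter only with the help of DAC libraries, and of the other 16 genes 4 were higher and 1 lower, close to the share of all transcripts. PEG13, a noncoding RNA within the TRAPPC9 gene, had the largest rise, from 0 to 2.73 normalized reads in untreated cells to 124 to 278 with DAC and 54.2 to 83.2 with DAC+ATRA (log2 fold changes 6.72 and 5.08, given as a description). WDR27, which encodes a WD repeat protein, was the 1 that fell (-1.50 ± 0.18 with DAC and -1.37 ± 0.18 with DAC+ATRA). With ATRA, where 5.11% of all transcripts were higher and 1.87% lower, 1 was higher, ERAP2 (1.06 ± 0.13), an aminopeptidase that trims antigenic peptides, and 1 was lower, the Prader-Willi region noncoding RNA PWAR6 (-0.76 ± 0.16). With DAC+ATRA 10 were higher and 1 lower, and 6 and 1 of the 16, against 25.5% and 16.1% of all transcripts. Against DAC alone, DAC+ATRA had 1 of the 21 higher, ERAP2 (1.06 ± 0.13, limma, adjusted p = 1.58e-06), and 1 lower, ASCL2 (-1.20 ± 0.29, adjusted p = 0.00479), a transcription factor of the trophoblast, against 5.18% and 3.59% of all transcripts. Over the 16 genes that passed without the help of DAC the median log2 fold change came to 0.11 with DAC, against 0.05 over all transcripts, to -0.01 with ATRA (against 0.00), and to 0.18 with DAC+ATRA (against 0.05).

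Of 31 genes that set, keep or read imprints, 20 were tested and 8 were silent. With DAC 2 were higher and 5 lower, against 22.2% and 11.3% of all transcripts. With ATRA 2 were higher and none lower (5.11% and 1.87% of all transcripts), and with DAC+ATRA 2 were higher and 5 lower (25.5% and 16.1%). DPPA3 and ARID4B had passed the filter only with the help of DAC libraries, and of the other 18 genes 1 was higher and 5 were lower with DAC as with DAC+ATRA. The largest rise was that of DPPA3, which protects maternal methylation in the early embryo, from 0 reads in every library without DAC to 134, 199 and 161 normalized reads with DAC and 127, 185 and 166 with DAC+ATRA. SMC1A, a cohesin subunit, fell the most with DAC (-1.32 ± 0.29, limma, adjusted p = 0.000478). This was counted on a short transcript (ENST00000469129, chrX:53381678-53382646) with 10 to 64 reads per library, which need not stand for the whole gene. DNMT3A, a de novo methyltransferase, had the largest rise with ATRA (1.38 ± 0.09, adjusted p = 2.60e-11). Against DAC alone, DAC+ATRA had 1 of the 20 higher and 1 lower, against 5.18% and 3.59% of all transcripts. These were DNMT3A (1.11 ± 0.09, limma, adjusted p = 2.02e-09) and KHDC3L (-1.20 ± 0.27, adjusted p = 0.00238).

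DNMT1, the methyltransferase that copies methylation at replication, was lower with DAC (-0.64 ± 0.16, limma, adjusted p = 0.00221) and had the largest fall with DAC+ATRA (-1.13 ± 0.16, adjusted p = 2.10e-06). Its counted transcript had 93 bases of its own. TRIM28, the corepressor that ZFP57 recruits, and ZNF445, a further zinc finger protein of imprints, passed in none of the comparisons with untreated cells (log2 fold changes 0.01 and -0.11 with DAC). The TRIM28 transcript counted had 258 bases of its own and at most 36 reads in a library, so it need not stand for the whole gene. ZFP57 itself and the germline factor CTCFL had no read in any library. UHRF1, the partner of DNMT1, had 0.904 to 6.37 normalized reads and the insulator protein CTCF at most 1 read, so neither was tested. CTCF is a gene that dividing cells in general use, so a low count of a transcript here does not show that its gene was off.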

How the data were processed

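RNA of 12 U937 libraries was depleted of ribosomal RNA, made into strand-specific paired-end libraries and sequenced on an Illumina instrument. Per the labels and the methods of the study, the authors used FastQC, STAR on hg38, HTSeq and DESeq2, but versions, annotation release, counting mode and strand setting are not given in the sources used here. The signal values that the authors deposited are read counts per transcript divided by a size factor for each library. Every value was a whole multiple of a single step per library within 0.001 reads (100% of values), which gave back the reads, from 8042435 to 10683593 per library. Columns named their treatment but no replicate, so libraries carry the column numbers 1 to 12.

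Transcripts were matched by identifier to GENCODE 44 (174768 placed, 23014 not). "Own bases" are exon bases shared with no other annotated transcript on the same strand. Some identifiers carried another version there, so these numbers are approximate. The 19373 transcripts that reached 10 normalized reads in 3 or more libraries were tested with limma 3.58.1 in R 4.3.3 (lmFit and eBayes with trend and robust) on log2(normalized read count + 1), all 12 libraries in 1 fit, with Benjamini-Hochberg adjustment per comparison over all transcripts and a threshold of 0.01. Fold changes on this scale understate those of low transcripts. A fold against a group at 0 is a lower bound against 3 reads per library. Scripts were tested on simulated data. The alternatives were edgeR 4.0.16 and DESeq2 1.42.0 on the recovered reads, other scalings, filters, pseudocounts, thresholds and transcript choices, and leaving out each library. edgeR on reads summed by symbol was added after seeing the data.

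The members and lists were chosen with earlier results of these data known. Genes past the threshold in any comparison were given with all libraries, the others by range or state. From the 2 further lists, the called gene with the largest and that with the smallest change were named. This was done per comparison with untreated cells and for DAC+ATRA against DAC. Besides these, 7 regulators were named (ZFP57, ZNF445, TRIM28, DNMT1, UHRF1, CTCF and CTCFL). Exact permutation tests of 3 against 3 libraries cannot go below p = 0.1 and were not used.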

Additional observations from a re-analysis of the deposited data

How the results depend on the processing

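No paired analysis was possible because the columns carry no replicate number. Of 548 values of the 25 called fold changes under alternatives, 518 kept direction and call, 30 kept direction but not the call, and 0 reversed. The 25 include fold changes of MEG3, NAP1L5, NDN and SNRPN, which passed the filter only with the help of DAC libraries. MEG3, NAP1L5 and NDN were at 0 in every library without DAC, so their direction could not reverse. The tally is therefore no support for these genes. Requiring 10 normalized reads in every library, which drops MEG3, NAP1L5, NDN and others with a low library, left 3 genes higher with DAC, 3 with DAC+ATRA and 4 with DAC+ATRA against ATRA. Among transcripts annotated as protein-coding in GENCODE 44, which leaves out MEG3, KCNQ1OT1 and transcripts not placed, 2 were higher with DAC, 1 with ATRA, 3 with DAC+ATRA and 3 with DAC+ATRA against ATRA, and 0 were lower with ATRA or with DAC+ATRA. With only the compared groups in the fit, 0 genes were lower with ATRA (KCNQ1OT1, adjusted p = 0.0115). At an adjusted p under 0.05, 2 were lower with ATRA and 1 with DAC+ATRA against DAC. With values summed by symbol, 7 genes were higher with DAC. With silence taken as 0 reads in every library, 8 of the 15 silent genes remained.

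Leaving out 1 library at a time, the number higher was 6 to 7 with DAC, 1 to 2 with ATRA, 6 to 7 with DAC+ATRA and 7 to 9 with DAC+ATRA against ATRA. The number lower was 0 to 1 with ATRA, 0 to 1 with DAC+ATRA, and 0 to 1 with DAC+ATRA against DAC (1 without DAC library 4 or ATRA library 9). SNRPN with DAC+ATRA also lost its call with library size scaling (adjusted p = 0.0153) and without a filter (0.0133). KCNQ1OT1 with DAC+ATRA against ATRA lost it with library size scaling (adjusted p = 0.0312), without a filter (0.0128), with only the compared groups (0.0121) and with edgeR on reads summed by symbol (0.0158). The cause was not tested. Library size scaling moved the median log2 fold change of all transcripts from 0.05 to -0.07 with DAC and from 0.05 to -0.09 with DAC+ATRA.

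Depth limits NDN, PEG3, SNRPN and GRB10 the most, with no library above 26 reads, and a count of 0 allows up to 3 reads per library by counting error alone.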
